A study of Mus musculus with 12 samples.

Results

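C3H/10T1/2 cells transfected with pH_BMP2ADV20a, a hybrid plasmid for bone morphogenetic protein 2 (BMP2) and the microRNA miR-20a, were compared with cells transfected with pH_BMP2ADV, the reference plasmid for BMP2 alone. The comparison takes all libraries that carry these 2 titles, 6 of the 12 in the series, with 3 in each group, and describes them across all genes of the count files. C3H/10T1/2 is an established mouse embryonic line of fibroblast shape, and both groups received 0.5 µg plasmid DNA per cm2 without a virus, had their medium exchanged 4 h later and were harvested 3 days after transfection. All groups carried a BMP2 plasmid, transfection was transient, and no mock or untransfected group was analysed here, so neither BMP2 nor transfection itself was measured against a baseline. The other 6 libraries, 3 each for the hybrid plasmids pH_BMP2ADV148b and pH_BMP2ADV590, were fitted in the same model and are given beside the genes described. Nothing in the labels says that the 3 replicates of a plasmid were separate cultures, so p-values measure the spread between these libraries, which may be technical.

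BMP2 is a secreted growth factor that acts through BMP receptors and SMAD proteins to switch on genes of cartilage and bone formation. MicroRNAs are short RNAs that, loaded on an Argonaute protein, pair through their seed with sites in the 3' untranslated region (UTR) of messenger RNAs and lower their stability and translation. miR-20a belongs to the miR-17 family, and in bone-forming cells its reported targets include Pparg, Bambi and Crim1, which oppose osteogenic or BMP signalling.

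The mature sequences below, from RefSeq on GRCm38.p6, are printed because the seed decides which sites can pair. The 7 mature mouse miRNAs of that table that share the miR-20a-5p seed are 6 of the miR-17 family and miR-6383, which is listed for its seed alone. The family members lie on chromosomes 5, 14 and X. Capitals mark the seed, bases 2 to 8 from the 5′ end.
mmu-miR-20a-5p, chr14:115044183-115044205, plus strand: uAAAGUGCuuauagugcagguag
mmu-miR-17-5p, chr14:115043684-115043706, plus strand: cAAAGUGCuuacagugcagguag
mmu-miR-20b-5p, chrX:52742159-52742181, minus strand: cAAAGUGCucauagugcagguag
mmu-miR-93-5p, chr5:138165574-138165596, minus strand: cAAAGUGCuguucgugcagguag
mmu-miR-6383, chrX:136183262-136183282, plus strand: uAAAGUGCugugucacggaca
A message with the 7 bases GCACTTT can pair with the seed of each of them, so a match does not tell the relatives apart.

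The plasmid's miRNA could not be read from these libraries. Mir20a (ENSMUSG00000065442, GRCm38 chr14:115044157-115044263), the gene model of the miR-20a hairpin, had 0 counts in all 12 libraries, which allows up to 0.0783 CPM over the 3 pH_BMP2ADV20a libraries. The libraries hold 3′ ends of polyadenylated transcripts, so this count checks no label. Mir17hg (ENSMUSG00000089726), the host transcript of miR-17 and miR-20a on chromosome 14, had 23, 52 and 24 counts in the pH_BMP2ADV libraries and 47, 33 and 30 in the pH_BMP2ADV20a libraries. These ranges overlapped, and the log2 fold change was -0.06 with a 95% interval from -0.83 to 0.71. Bmp2 (ENSMUSG00000027358, chr2:133552159-133562885), encoded by both plasmids and by the cells, had 24, 15 and 7 counts in the pH_BMP2ADV libraries and 60, 40 and 32 in the pH_BMP2ADV20a libraries. All 3 pH_BMP2ADV20a libraries were above the reference, but the log2 fold change of 1.35 (95% interval 0.55 to 2.15) did not pass the test (adjusted p = 0.16). With no filter on low counts it passed (adjusted p = 0.0333). Against pH_BMP2ADV, Bmp2 passed the test as higher in pH_BMP2ADV148b (1.998, adjusted p = 0.0326) and in pH_BMP2ADV590 (1.91, adjusted p = 0.0021). The differences of pH_BMP2ADV20a from these hybrids did not pass (-0.65 and -0.56, adjusted p = 0.692 and 0.48). Whether these few reads came from a plasmid or from the cells' own gene cannot be told apart.

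The 6 libraries held 9773102 to 14727288 counts assigned to genes and 17115 to 17844 genes above 0. The share of Gm42418, a gene model within ribosomal RNA, was 5.79% to 10.0% in pH_BMP2ADV, highest in replicate 3, and 8.08% to 8.43% in pH_BMP2ADV20a. Mitochondrial transcripts took 1.77% to 1.96%. The number of genes that passed the test below was the same, 63, with Gm42418 and mitochondrial genes left out. The 12 fibroblast markers were all tested and summed to 17840 to 18450 CPM in pH_BMP2ADV and 18380 to 19300 CPM in pH_BMP2ADV20a. All 12 were above 0 in both groups. Of 14 epithelial markers only Cdh1, Trp63 and Cldn1 passed the filter on low counts, the list summed to 5.55 to 7.69 CPM in pH_BMP2ADV and 4.69 to 5.01 CPM in pH_BMP2ADV20a, and Cldn3, Cldn4 and Cldn7 were at 0 in all 12 libraries. The 12 macrophage markers summed to 7.02 to 7.14 CPM and 7.27 to 8.06 CPM, with Adgre1, Tyrobp and C1qa at 0 throughout.

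Genes that were lower with pH_BMP2ADV20a included 4 of 13 tested chemokines and cytokines, 4 of 42 antiviral genes and the 3 Gadd45 stress genes. Those that were higher included 4 of 11 tested epidermal genes, and single matrix and stress genes such as Sparc, Hspb1 and Nqo1. A gene was called where edgeR's quasi-likelihood test, adjusted by Benjamini-Hochberg over 13229 tested genes, gave p under 0.05. By this rule 63 genes differed, 13 higher and 50 lower in pH_BMP2ADV20a, that is 0.0983% and 0.378% of the genes tested. Changes were mostly moderate: the median log2 fold change was 0.64 among the higher and -0.78 among the lower genes, against -0.00179 over all tested genes. An unadjusted p under 0.05 was reached by 1306 genes, 586 higher and 720 lower. Among the 11581 tested genes with an annotated 3' untranslated region, 4.58% were higher and 5.83% lower at that level. Counts at an unadjusted p in the lists below are to be read beside these shares. Of the called genes 59 had at least 5 CPM in 1 of the groups, 5 were not protein coding, and 2 were gene models without an established name. Of the 63, 39 lay in lists that were chosen with earlier results of these data known. The share of all tested genes in these lists was not counted, so 39 is no measure of concentration.

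**Figure D1:**
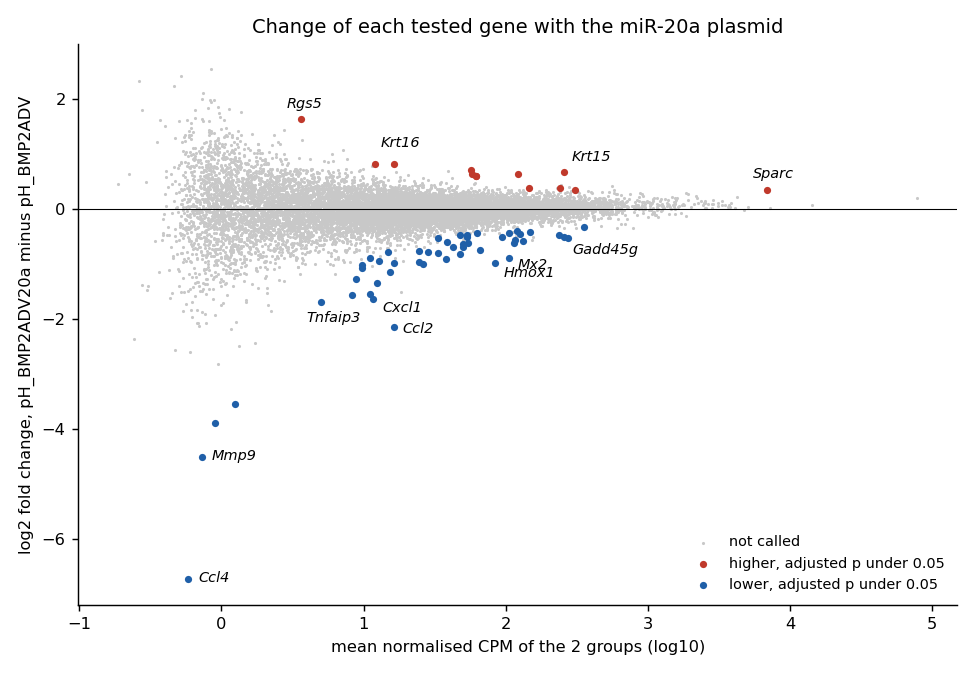
Log2 fold change of each tested gene (pH_BMP2ADV20a minus pH_BMP2ADV, vertical axis) against its mean level in the 2 groups (log10 of normalised CPM). Points are genes; the 13 red genes passed the test as higher and the 50 blue genes as lower, and most blue genes lie between -0.41 and -2.15, with 4 scarce genes far below.

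The number of calls rested on each library of the comparison. It was 27, 18 and 31 without pH_BMP2ADV replicate 1, 2 and 3, and 25, 26 and 20 without pH_BMP2ADV20a replicate 1, 2 and 3. It was 108 without pH_BMP2ADV590 replicate 2. In all 12 fits with 1 library left out, the 63 genes kept their direction, and 14 of them, all lower, were called each time: Ccl2, Cxcl1, Ccl7, Tnfaip3, Irf1, Mx1, Mx2, Bhlhe41, Gadd45a, Gadd45b, Hmox1, Pvt1, Snhg15 and 1 unnamed gene model. None of the 13 higher genes was called in every such fit.

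Genes of chemokines, secreted proteins that draw leukocytes, were among the largest falls. Ccl2 (ENSMUSG00000035385, chr11:82035571-82037453, protein coding), which encodes the monocyte attractant MCP-1, measured 28.4, 25.6 and 26.3 CPM in the pH_BMP2ADV libraries and 6.37, 6.51 and 5.06 CPM in the pH_BMP2ADV20a libraries. The groups were far apart and each was tight, with a log2 fold change of -2.15 (95% interval -2.60 to -1.71, adjusted p = 8.02e-06). Its neighbour Ccl7 (ENSMUSG00000035373, chr11:82045712-82047525), a related monocyte attractant, measured 17.4, 14.4 and 18.1 CPM against 5.53, 6.51 and 4.97 CPM. Again no pH_BMP2ADV20a library reached the lowest reference library (-1.55, -1.99 to -1.10, adjusted p = 0.000642). Cxcl1 (ENSMUSG00000029380, chr5:90891241-90893115), a neutrophil attractant, measured 22.1, 16.6 and 14.4 CPM against 5.39, 6.29 and 5.53 CPM. The reference libraries spread more widely than the pH_BMP2ADV20a libraries, without overlap (-1.63, -2.05 to -1.22, adjusted p = 0.000199). Csf1, the growth factor of macrophages, measured 131, 147 and 137 CPM against 93.2, 96.1 and 90.4 CPM, a smaller fall with no overlap (-0.57, -0.81 to -0.32, adjusted p = 0.0261).

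Of the 26 listed chemokines and cytokines, 13 passed the filter on low counts, and these 4 fell while none rose. Csf1 lost its call without any 1 of the 6 libraries compared (adjusted p up to 0.184), leaving 3. The median log2 fold change of the 13 was -0.79, 12 were below 0, and in 9 the pH_BMP2ADV20a libraries lay wholly below the reference, as in 8.79% of all tested genes. Among the members that did not pass the test, Lif and Il6, cytokines that signal through gp130, averaged 1.65 ± 1.03 and 1.43 ± 0.368 CPM in pH_BMP2ADV and 0.244 ± 0.359 and 0.374 ± 0.0944 CPM in pH_BMP2ADV20a (SD, n = 3), log2 values of -2.83 and -1.92. Ccl5 and Ptgs2, a chemokine and an enzyme of prostaglandin synthesis, were near the reference at -0.32 and -0.20. Il11 was the member above 0, at 0.27. In bulk RNA, fewer cells that make a transcript and less of it per cell cannot be told apart.

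NF-kB is the transcription factor family that switches on many of these chemokines and its own inhibitors. Tnfaip3 (ENSMUSG00000019850, chr10:19000910-19015657), which encodes the NF-kB inhibitor A20, measured 8.28, 6.39 and 8.38 CPM against 2.73, 2.17 and 2.15 CPM. All 3 pH_BMP2ADV20a libraries were under the lowest reference library (-1.70, 95% interval -2.31 to -1.09, adjusted p = 0.00587). Relb, a subunit of NF-kB, measured 15.1, 15.2 and 13.0 CPM against 6.64, 8.15 and 8.53 CPM, also without overlap (-0.90, -1.30 to -0.49, adjusted p = 0.0355). Tnfaip3 and Relb were the 2 calls among 24 tested NF-kB genes, whose median was -0.19 with 19 below 0. Traf1, a receptor adaptor, and Icam1, an adhesion molecule, averaged 2.27 ± 1.08 and 2.93 ± 0.993 CPM in pH_BMP2ADV and 0.404 ± 0.140 and 0.530 ± 0.236 CPM in pH_BMP2ADV20a and missed the threshold (adjusted p = 0.0604 and 0.0913). The subunits Rela, Nfkb1 and Nfkb2 stood at -0.00, -0.11 and -0.15, and the inhibitor Nfkbia at -0.23. Relb was lost, leaving 1 call in the list, without any 1 of the 6 libraries compared or without pH_BMP2ADV148b replicate 2 (adjusted p up to 0.194).

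**Figure D2:**
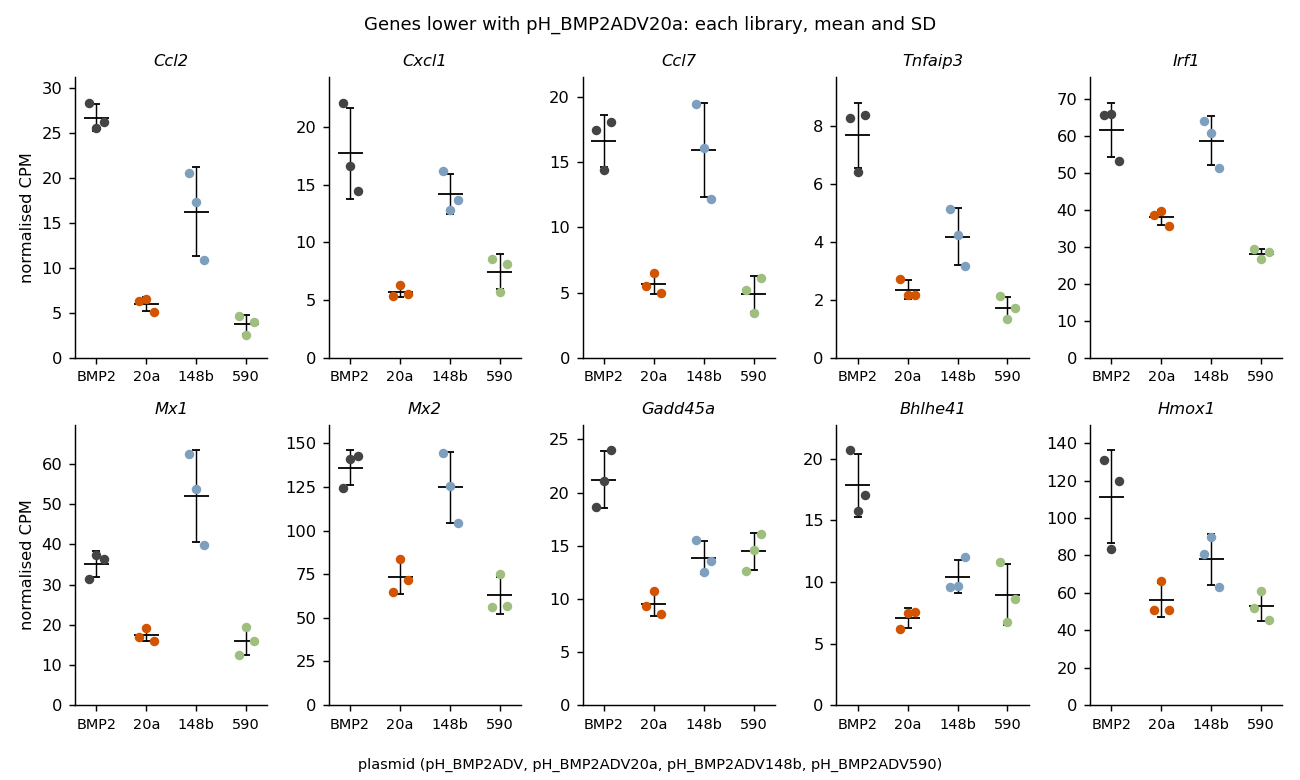
Normalised CPM of 10 genes that were lower with pH_BMP2ADV20a, by plasmid. Points are libraries, the long bar is the mean and the whiskers 1 SD (n = 3); in each panel the 3 pH_BMP2ADV20a points lie under the 3 pH_BMP2ADV points, and the 2 other hybrid plasmids are shown beside them.

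Interferon-stimulated genes encode antiviral proteins that cells make in answer to type I interferon. Mx1 (ENSMUSG00000000386, chr16:97447035-97462907), a dynamin-like antiviral GTPase, measured 31.4, 37.4 and 36.4 CPM against 17.1, 19.1 and 16.0 CPM. Each pH_BMP2ADV20a library was well under the lowest reference library (-1.01, 95% interval -1.34 to -0.67, adjusted p = 0.0022). Its neighbour Mx2 (ENSMUSG00000023341, chr16:97535308-97560900), annotated as a polymorphic pseudogene, measured 125, 141 and 143 CPM against 64.6, 83.7 and 71.6 CPM. The separation was the same (-0.89, -1.14 to -0.64, adjusted p = 0.000642). Cxcl10, a chemokine induced by interferon, measured 45.0, 56.7 and 47.0 CPM against 25.9, 32.3 and 20.9 CPM (-0.90, -1.27 to -0.54, adjusted p = 0.018). Rsad2, which encodes viperin, measured 48.8, 56.5 and 53.8 CPM against 28.1, 34.7 and 35.1 CPM (-0.70, -1.02 to -0.38, adjusted p = 0.0355). For both the groups did not overlap.

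These 4 were the calls among 42 tested antiviral genes. The list had a median of -0.23, and 37 of 42 were below 0 against 50.4% of all tested genes. Wholly below the reference were 10, against 8.79% of all tested genes. Of abundant members, Ifit1 was at -0.35 (adjusted p = 0.0604), Isg15 at -0.35, Ifit3 at -0.28 and Ifi44 at -0.19, while Ly6e and Ifitm3 were at 0.34 and 0.06; none passed the test. The calls numbered 2 without pH_BMP2ADV replicate 2, pH_BMP2ADV20a replicate 1 or pH_BMP2ADV20a replicate 3, when Cxcl10 and Rsad2 lost theirs (adjusted p up to 0.164 and 0.218). Of the 12 fits with 1 library left out, Cxcl10 was called in 9 and Rsad2 in 5. Rsad2 was also not called by limma-voom (adjusted p = 0.0585) or with the replicate block (adjusted p = 0.053). Mx1 and Mx2 are close relatives, and so are the p200 genes below, and how many reads each lost to multiple alignment was not tested.

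Among interferon-inducible GTPases and p200 genes, which restrict intracellular pathogens or bind DNA, 3 of 19 tested members fell and none rose. Ifi207 measured 11.02, 15.8 and 12.5 CPM against 6.85, 5.91 and 6.46 CPM (-1.03, adjusted p = 0.0324). Its neighbour on chromosome 1, Ifi204, measured 81.9, 84.7 and 79.6 CPM against 43.4, 57.0 and 46.5 CPM (-0.75, adjusted p = 0.0186). Iigp1, a GTPase of the pathogen vacuole, measured 261, 318 and 249.7 CPM against 166, 237 and 195 CPM (-0.47, adjusted p = 0.0465). With RLE scaling Iigp1 missed the threshold (adjusted p = 0.0518). None of the 3 overlapped, though for Iigp1 the highest pH_BMP2ADV20a library came close to the lowest reference library. The list median was -0.31 and 17 of 19 were below 0. No member was called without any 1 of the pH_BMP2ADV libraries or without pH_BMP2ADV20a replicate 1 or 3, and 1 was called without pH_BMP2ADV148b replicate 2, with adjusted p up to 0.234, 0.149 and 0.351 for the 3. Gbp2b, a guanylate-binding GTPase outside the list, also fell, from 29.5, 36.0 and 27.8 CPM to 17.6, 20.8 and 16.1 CPM (-0.77, adjusted p = 0.0186).

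Of 23 tested sensors and factors of the interferon pathway, 1 fell. Irf1 (ENSMUSG00000018899, chr11:53770014-53778374), a transcription factor shared by interferon and NF-kB responses, measured 65.9, 66.1 and 53.3 CPM against 38.6, 39.7 and 35.7 CPM. The pH_BMP2ADV20a libraries were tight and lay below the reference (-0.70, 95% interval -0.93 to -0.47, adjusted p = 0.00197). Ifnb1, the gene of interferon beta, averaged 2.30 ± 0.360 CPM in pH_BMP2ADV and 0.703 ± 0.441 CPM in pH_BMP2ADV20a and was not called (-1.70). Irf9 and Irf7, transcription factors of the interferon response, were at -0.10 and 0.09 with no call. The 17 genes of MHC class I presentation, which display peptides to T cells, gave no call in edgeR or DESeq2 and a median of -0.04, with 1 higher and 2 lower at an unadjusted p under 0.05.

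The Gadd45 genes encode small stress proteins linked to growth arrest and to p38 signalling, and all of them fell. Gadd45a (ENSMUSG00000036390, chr6:67035096-67037457) measured 18.6, 21.0 and 24.0 CPM against 9.30, 10.7 and 8.53 CPM. The groups were well apart (-1.15, 95% interval -1.49 to -0.81, adjusted p = 0.000798). Gadd45b (ENSMUSG00000015312, chr10:80930073-80932204) measured 153, 166 and 157 CPM against 106, 110.4 and 101 CPM (-0.58, -0.77 to -0.40, adjusted p = 0.00148). Gadd45g (ENSMUSG00000021453, chr13:51846678-51848468) measured 304, 289.5 and 308 CPM against 225, 204 and 202 CPM (-0.51, -0.71 to -0.32, adjusted p = 0.0123). Both had tight, separate groups. The fourth gene of the list, Gadd45gip1, encodes a protein named for binding them and is not a family member; it was at 0.17 and not called.

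Among genes that p53 switches on after DNA damage, 3 of 25 tested fell and none rose. The median was -0.20, 21 were below 0 and 10 lay wholly below the reference, against 8.79% of all tested genes. Mdm2, which encodes the ligase that degrades p53, measured 334, 372 and 271 CPM against 212, 227 and 239 CPM (-0.53, adjusted p = 0.0126). Bbc3, the gene of the apoptosis activator PUMA, measured 53.01, 45.2 and 42.1 CPM against 33.0, 32.7 and 27.0 CPM (-0.60, adjusted p = 0.0306). Plk2, a kinase, measured 166, 167 and 172 CPM against 127, 131 and 121 CPM (-0.42, adjusted p = 0.0322). None of these overlapped, and the reference libraries of Mdm2 spread most. Cdkn1a, the cell cycle inhibitor p21, stood at 0.05 (95% interval -0.11 to 0.21) and Bax at 0.09; neither was called. All 3 calls were lost without pH_BMP2ADV replicate 1 or 2 or without pH_BMP2ADV20a replicate 1 or 2 (adjusted p up to 0.153, 0.214 and 0.194).

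Among circadian clock genes, 3 of 19 tested fell and none rose, with a median of -0.30. Bhlhe41 (ENSMUSG00000030256, chr6:145858243-145865558), which encodes the clock repressor DEC2, measured 20.7, 15.8 and 17.1 CPM against 6.16, 7.48 and 7.59 CPM. The groups were widely separated (-1.34, 95% interval -1.75 to -0.93, adjusted p = 0.00132). Noct, the gene of nocturnin, measured 11.5, 11.6 and 14.7 CPM against 6.58, 5.31 and 3.56 CPM (-1.27, adjusted p = 0.0158). Nr1d2, a nuclear receptor of the clock, measured 70.5, 71.2 and 74.7 CPM against 57.9, 52.5 and 48.7 CPM (-0.44, adjusted p = 0.0361). Neither gene overlapped between groups. Its relative Nr1d1 and the period gene Per1 were at -0.62 and -0.54 and missed the threshold (adjusted p = 0.0689 and 0.073), while Clock and Arntl, the activators, stood at 0.03 and 0.05. The list kept 1 call without pH_BMP2ADV replicate 2 or 3 or without pH_BMP2ADV20a replicate 2 or 3, and had 5 without pH_BMP2ADV590 replicate 2. Noct and Nr1d2 reached adjusted p of 0.149 and 0.253 in these fits.

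Immediate early genes, which answer growth factors and stress within minutes to hours, gave 2 falls and no rise among 27 tested. Their median was -0.21, with 21 below 0 and 11 wholly below the reference, against 8.79% of all tested genes. Fosl1, a subunit of the transcription factor AP-1, measured 39.5, 39.3 and 48.0 CPM against 28.9, 24.0 and 19.6 CPM (-0.80, adjusted p = 0.0151). Maff, a small MAF protein, measured 15.4, 10.6 and 13.7 CPM against 6.37, 7.26 and 5.06 CPM (-1.08, adjusted p = 0.027). Both separated the groups. Fos, Jun and Egr1 stood at -0.21, -0.18 and -0.23 without a call. No call was left without pH_BMP2ADV replicate 3 or pH_BMP2ADV20a replicate 2 or 3, and 1 without pH_BMP2ADV replicate 1 or 2 or pH_BMP2ADV20a replicate 1 (adjusted p up to 0.149 for Fosl1 and 0.182 for Maff).

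NRF2, encoded by Nfe2l2, drives genes against oxidative stress, and its list moved in both directions: of 16 tested, 2 fell and 1 rose, with a median of -0.16. Hmox1 (ENSMUSG00000005413, chr8:75093621-75100589), the haem-degrading enzyme, measured 131, 83.5 and 119.9 CPM against 50.8, 66.6 and 50.8 CPM. The lowest reference library, replicate 2, was still above the highest pH_BMP2ADV20a library (-0.99, 95% interval -1.30 to -0.68, adjusted p = 0.00132). Nfe2l2 itself measured 129.8, 142 and 137 CPM against 99.9, 103 and 106 CPM (-0.41, adjusted p = 0.0261). Nqo1, a quinone reductase, was higher, at 278, 286 and 253 CPM against 322, 368 and 341 CPM (0.34, adjusted p = 0.0457). Of the glutathione genes, Gclc stood at -0.32 and Gclm at -0.16, without a call. Without any 1 of the 6 libraries compared, Hmox1 kept its call while Nfe2l2 and Nqo1 lost theirs (adjusted p up to 0.179 and 0.25).

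The ATF4 list, genes of the amino acid stress response, had 1 fall among 23 tested and a median of -0.25. That was Trib3, a pseudokinase, with 60.0, 59.6 and 69.1 CPM against 52.4, 40.2 and 39.0 CPM (-0.52, adjusted p = 0.0453), where pH_BMP2ADV20a replicate 1 stood closest to the reference. The call was lost without any 1 of the pH_BMP2ADV or pH_BMP2ADV148b libraries, pH_BMP2ADV20a replicate 2 or 3, or pH_BMP2ADV590 replicate 3 (adjusted p up to 0.276), and the list had 2 calls without pH_BMP2ADV590 replicate 1 or 2. Gdf15, a stress hormone on this list and that of p53, averaged 8.63 ± 1.64 CPM against 3.87 ± 1.46 CPM and missed the threshold (adjusted p = 0.0636). Atf4 and Ddit3 stood at -0.10 and -0.30 without a call. The 20 chaperones of the endoplasmic reticulum gave no call in edgeR or DESeq2 and a median of 0.07, with 2 higher and none lower at an unadjusted p under 0.05.

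Other called genes that fell included the long noncoding RNAs Pvt1 and Snhg15. Pvt1 (ENSMUSG00000097039, chr15:62037986-62378096), the neighbour of Myc, measured 30.8, 34.3 and 31.4 CPM against 13.0, 17.9 and 18.6 CPM (-0.97, adjusted p = 0.00137). Snhg15 (ENSMUSG00000085156, chr11:6525591-6528760), a small nucleolar RNA host, measured 66.8, 55.7 and 59.3 CPM against 33.1, 35.8 and 34.6 CPM (-0.81, adjusted p = 0.000642). Both groups were tight and apart in each case. Slc25a25, Nrg1, Klf10, Resf1, Cited2, Cnot4, Mt2, Ptp4a1, Ajuba, Ifrd1 and Fnip1 fell by 0.94, 0.78, 0.64, 0.63, 0.62, 0.52, 0.51, 0.48, 0.47, 0.45 and 0.43 on the log2 scale. Tmem251 was called at -0.79, but it overlaps a gene on the other strand with more counts than its own, and since no source used here gives the strand setting of the counting, its value is uncertain. Slc25a25 also overlaps a gene on the other strand, Naif1, which had fewer counts over the 12 libraries (785 against 1480 of Slc25a25).

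Among the called genes, 4 were scarce and close to absent in pH_BMP2ADV20a, and are given by their counts. Ccl4 (chr11:83662584-83664683), a chemokine, had 11, 19 and 9 counts in pH_BMP2ADV and 0 in each pH_BMP2ADV20a library, at least 14.7-fold lower when 0 is taken to allow 3 counts over the group. Mmp9, a matrix protease of leukocytes and osteoclasts, had 29, 9 and 12 counts against 1, 1 and 0, a 28.3-fold ratio after scaling with a counting interval from 7.43 to 240.1. Rasgrf2, a Ras activator, had 19, 15 and 22 counts against 1, 3 and 0, a ratio of 15.8 (5.86 to 60.2). C3, the central complement protein, had 46, 23 and 13 counts against 1, 0 and 6, a ratio of 13.3 (6.15 to 34.0). For each of them every pH_BMP2ADV20a library was under every reference library. The bounds and intervals cover counting error only. In the edgeR test their adjusted p values were 0.00966, 0.0224, 0.018 and 0.0355. With 1 library left out, the fitted log2 fold change ran from -5.63 to -2.94 for C3, at the first value without pH_BMP2ADV20a replicate 3, and from -5.06 to -3.44 for Rasgrf2, at the first value without pH_BMP2ADV20a replicate 2. Of the 12 such fits C3 was called in 4, Rasgrf2 and Mmp9 in 7 and Ccl4 in 8 (adjusted p up to 0.214, 0.149, 0.154 and 0.0719). Among the 6 compared libraries, C3 kept its call only without pH_BMP2ADV20a replicate 3, Rasgrf2 only without pH_BMP2ADV20a replicate 2, Mmp9 only without pH_BMP2ADV replicate 2, and Ccl4 only without pH_BMP2ADV replicate 1 or 3.

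Rises were fewer, and 4 of the 13 were keratins or other epidermal genes. Of 32 listed genes 11 passed the filter, 4 rose and none fell. Krt15 (ENSMUSG00000054146, chr11:100131758-100135928), a keratin of basal epidermis, measured 223, 207 and 164 CPM in pH_BMP2ADV and 287, 314 and 350.5 CPM in pH_BMP2ADV20a. All 3 pH_BMP2ADV20a libraries were above the reference (0.68, 95% interval 0.39 to 0.96, adjusted p = 0.0246). Krt16 (ENSMUSG00000053797, chr11:100246091-100248902), a keratin of stressed epidermis, measured 14.5, 10.2 and 10.9 CPM against 19.6, 21.8 and 21.8 CPM (0.82, 0.45 to 1.19, adjusted p = 0.0355). Cdsn, the gene of corneodesmosin, measured 49.8, 46.2 and 52.1 CPM against 79.4, 74.7 and 71.2 CPM (0.61, 0.38 to 0.84, adjusted p = 0.0115). Anxa8, an annexin, measured 88.3, 85.8 and 114 CPM against 175, 142 and 132 CPM (0.64, 0.41 to 0.88, adjusted p = 0.00636). None of the 3 overlapped between groups, and the 2 keratins lie in 1 cluster on chromosome 11. Krt15 was not called by DESeq2 (adjusted p = 0.113) and Krt16 not by limma-voom (adjusted p = 0.0765).

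The 11 epidermal genes had a median of 0.64, and in 8 the pH_BMP2ADV20a libraries lay wholly above the reference, as in 7.76% of all tested genes. Krt13, Krt42 and Krt19 averaged 29.9 ± 6.97, 5.30 ± 1.64 and 4.61 ± 0.588 CPM in pH_BMP2ADV and 48.5 ± 2.55, 10.0 ± 1.19 and 9.73 ± 1.07 CPM in pH_BMP2ADV20a, with no call. Krt14 and Krt10 were at 0.01 and 0.36. No member was called without pH_BMP2ADV replicate 2, 1 without pH_BMP2ADV20a replicate 1, and 2 without pH_BMP2ADV replicate 3 or pH_BMP2ADV20a replicate 2 or 3. In these fits Krt15, Krt16, Cdsn and Anxa8 reached adjusted p of 0.18, 0.234, 0.0932 and 0.0719. The epithelial markers summed to at most 7.69 CPM in these libraries, and the part of other cell types in these values was not tested. Whether these keratins can share reads with close copies was not tested.

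**Figure D3:**
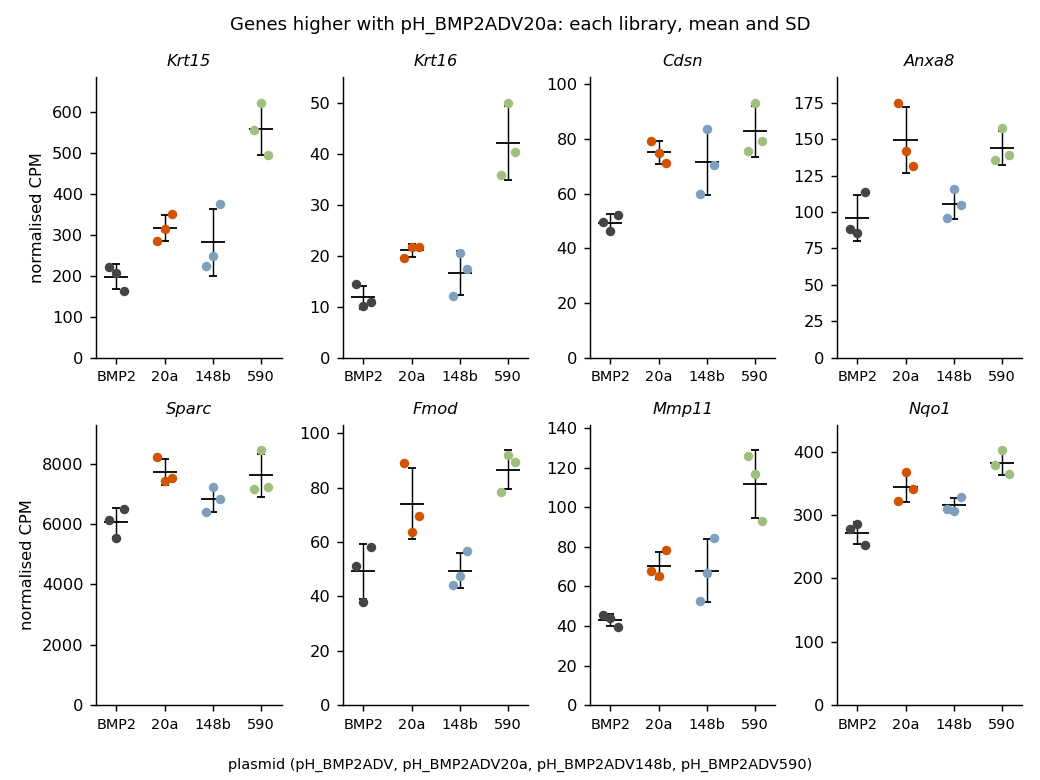
Normalised CPM of 8 genes that were higher with pH_BMP2ADV20a, by plasmid. Points are libraries, the long bar is the mean and the whiskers 1 SD (n = 3); the pH_BMP2ADV20a points lie above the pH_BMP2ADV points in each panel, while pH_BMP2ADV590 reached the highest mean for Krt15 (559 ± 63.7 CPM) and Krt16 (42.1 ± 7.25 CPM).

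Several matrix genes also rose. Sparc (ENSMUSG00000018593, chr11:55394500-55423183), which encodes osteonectin, a collagen-binding protein of bone, measured 6116, 5536 and 6502 CPM against 8205, 7409 and 7522 CPM (0.35, adjusted p = 0.041). Fmod, the collagen-binding proteoglycan fibromodulin, measured 51.2, 38.1 and 58.1 CPM against 88.9, 63.8 and 69.7 CPM (0.60, adjusted p = 0.0476). Mfap5, a microfibril protein, measured 127, 122 and 132 CPM against 169.5, 164 and 162 CPM (0.38, adjusted p = 0.0361). In all 3 the lowest pH_BMP2ADV20a library was above the highest reference library. Mmp11, a matrix protease of stromal cells, measured 45.5, 44.1 and 39.6 CPM against 67.8, 65.5 and 78.5 CPM (0.71, adjusted p = 0.0144). Rgs5, a regulator of G-protein signalling known from pericytes, was scarcer, at 1.70, 1.58 and 1.99 CPM against 5.88, 3.59 and 7.03 CPM (1.64, 0.96 to 2.32, adjusted p = 0.0196). Hspb1, a small heat shock protein, measured 9.24, 7.51 and 9.21 CPM against 14.97, 14.1 and 16.7 CPM (0.81, adjusted p = 0.0346). The groups were again separate for each. Fibin rose by 0.64 and Eid1 by 0.38 on the log2 scale. Rgs5 and Fibin were not called by limma-voom (adjusted p = 0.0765 and 0.076).

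Mfap5, Fmod, Sparc, Mmp11 and Hspb1 were each the only rise in their list, and the list of Mmp11 also held a fall, the scarce Mmp9. Mfap5 was 1 of 32 collagens and fibrous matrix genes, whose median was 0.14. Of these, 5 were below 0 and 9 wholly above the reference, against 7.76% of all tested genes. Fmod was 1 of 13 small leucine-rich proteoglycans (median 0.10), Sparc 1 of 18 osteoblast genes (0.10), Mmp11 1 of 24 proteases and inhibitors (0.08) and Hspb1 1 of 24 heat shock proteins (-0.01). The calls of Mfap5 and Hspb1 were lost without any 1 of the 6 libraries compared (adjusted p up to 0.198 and 0.204). Those of Sparc and Fmod were kept without pH_BMP2ADV replicate 3, and that of Mmp11 without pH_BMP2ADV replicate 1 or pH_BMP2ADV20a replicate 1 or 2, and each was lost without the other compared libraries (adjusted p up to 0.257, 0.318 and 0.149). Sparc was also lost without pH_BMP2ADV148b replicate 2, and Fmod without pH_BMP2ADV148b replicate 1 or 2 or pH_BMP2ADV590 replicate 3.

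BMP signalling is read most directly from genes that SMAD proteins switch on, and none of 19 tested targets was called. Id1 measured 384, 357 and 334 CPM against 393, 376 and 348 CPM, with overlapping groups. Its log2 fold change of 0.06 had a 95% interval from -0.11 to 0.22. The inhibitory SMAD genes Smad6 and Smad7 were at -0.02 (-0.23 to 0.20) and 0.09 (-0.14 to 0.33), and the antagonist Nog, with 1.48, 1.21 and 1.57 CPM against 2.10, 0.673 and 2.90 CPM, at 0.40 (-0.64 to 1.43). These groups overlapped too. Hey1 and Grem1 averaged 84.9 ± 9.24 and 38.6 ± 5.07 CPM in pH_BMP2ADV and 113 ± 6.78 and 51.8 ± 3.35 CPM in pH_BMP2ADV20a, and missed the threshold (adjusted p = 0.0604 and 0.0913). The list median was 0.09. At an unadjusted p under 0.05, 2 targets were higher and none lower, and DESeq2 called 2 higher.

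Bone and cartilage programmes gave no call other than Sparc. Runx2, the master regulator of osteoblasts, averaged 41.7 ± 2.92 CPM against 50.5 ± 2.35 CPM (0.28, 95% interval 0.07 to 0.49), and Col1a1, the chain of bone collagen, stood at 0.03 (-0.16 to 0.23). The 18 tested chondrocyte genes had a median of 0.18 with 5 below 0. Sox9, the regulator of cartilage, averaged 1727 ± 210.1 CPM against 2082 ± 94.5 CPM (0.27, 0.06 to 0.48), and Col2a1 and Acan, the collagen and the proteoglycan of cartilage, stood at 0.18 and 0.35. The 19 tested adipocyte genes had a median of -0.18. At an unadjusted p under 0.05, 6 osteoblast genes were higher and 1 lower, 4 chondrocyte genes higher and none lower, and 1 adipocyte gene higher and 3 lower. DESeq2 called 1 osteoblast gene and none of the other 2 lists.

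No cell cycle gene was called. All 26 mitosis genes were tested, and 25 were below 0 with a median of -0.12; the 28 DNA replication genes had a median of -0.11, also without a call. At an unadjusted p under 0.05, 4 and 3 of them were lower and none higher, and DESeq2 called none. Lists for Wnt, Notch and TGF-beta signalling, cholesterol synthesis, hypoxia, D cyclins, contractile genes and miRNA processing had medians between -0.02 and 0.08, without a call in edgeR. Each had at most 4 members at an unadjusted p under 0.05 in a direction, and DESeq2 called 1 hypoxia gene lower and 1 Notch gene higher.

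**Figure D4:**
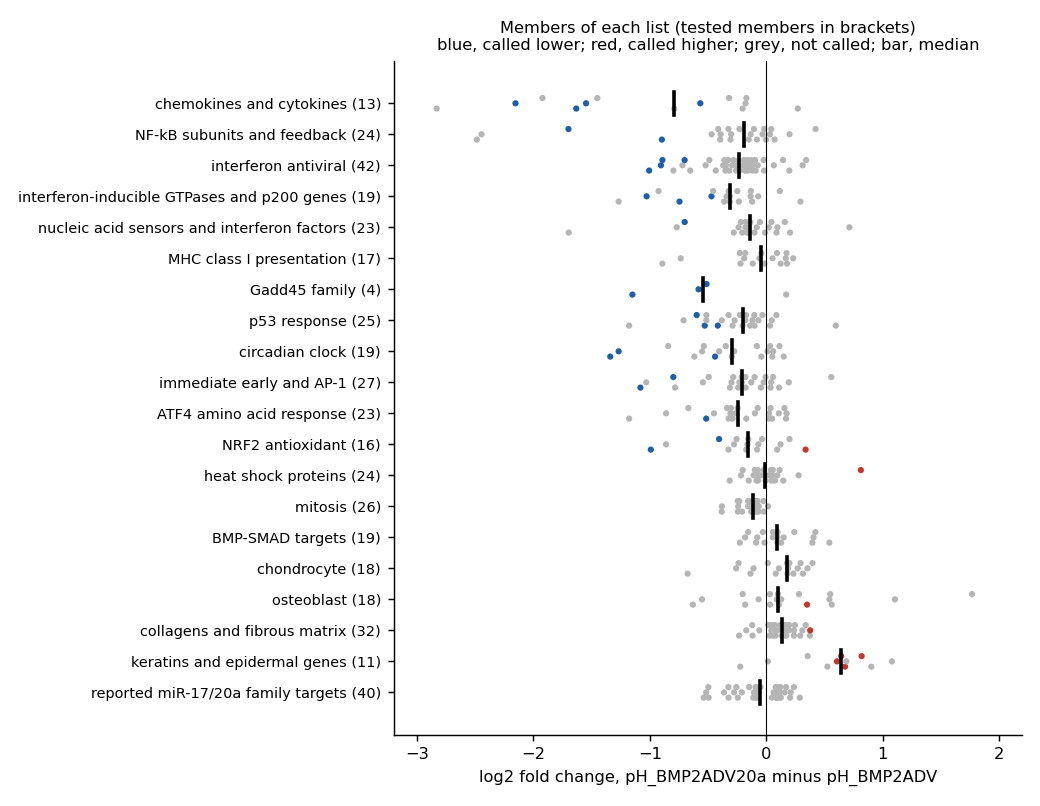
Log2 fold change (pH_BMP2ADV20a minus pH_BMP2ADV) of the tested members of 20 lists. Each point is a gene, blue if called lower, red if called higher and grey if not called, and the black bar is the list's median; the lowest median is that of the chemokines (-0.79) and the highest that of the epidermal genes (0.64).

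None of 40 tested genes reported as targets of the miR-17 family was called. The lowest log2 values were those of Kat2b, Pparg and Txnip. Kat2b, an acetyltransferase, measured 22.1, 19.7 and 16.4 CPM against 12.8, 14.4 and 13.0 CPM (-0.54, adjusted p = 0.275). Txnip, a brake on glucose uptake, measured 146, 160.4 and 107 CPM against 93.3, 97.9 and 102 CPM (-0.50, adjusted p = 0.0606). Both had separate groups without passing the test in the main analysis. Txnip was called lower by DESeq2 (adjusted p = 0.0241), and by edgeR with the 6 libraries alone (0.01) and with no low-count filter (0.00015). It was not called with RLE scaling (0.0668), limma-voom (0.0765) or the replicate block (0.105). Of the 12 fits with 1 library left out, 3 called it (adjusted p up to 0.394). Pparg, the regulator of fat cells, measured 19.1, 20.8 and 22.5 CPM against 12.3, 11.7 and 19.9 CPM (-0.52, 95% interval -1.10 to 0.07), and replicate 3 of pH_BMP2ADV20a lay within the reference range. Bambi, a decoy receptor for BMP and TGF-beta, measured 70.2, 65.7 and 46.5 CPM against 54.1, 72.4 and 69.4 CPM (0.10, -0.18 to 0.38). Crim1, which binds BMPs, measured 37.9, 44.2 and 47.0 CPM against 50.1, 49.4 and 44.0 CPM (0.16, -0.06 to 0.38). Their groups overlapped. E2f3, Itch and Ulk1 were the highest of the list, at 0.21, 0.24 and 0.29. The median was -0.06 with 21 of 40 below 0. At an unadjusted p under 0.05, 7 were lower and none higher, against 5.83% lower and 4.58% higher of all tested genes with a 3' UTR. DESeq2 called 2 as lower.

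The seed match was next sought in the longest annotated 3' UTR of each tested gene, on its own strand. A 7-base match is GCACTTT, complementary to bases 2 to 8 of the miRNA, and an 8-base match is GCACTTTA, with an A opposite base 1; each 8-base match is also a 7-base match. The sites below, on GRCm38, are shown because they belong to called genes or to the reported targets just described. Capitals mark the match.
Bhlhe41, chr6:145862174-145862203, minus strand: cgcctttgctcGCACTTTAttgacaaattg
Rasgrf2, chr13:91883040-91883069, minus strand: cctcttcccttGCACTTTAattatgtggta
Csf1, chr3:107742083-107742111, minus strand: ttctgcatcttGCACTTTgacattcccag
Klf10, chr15:38295129-38295157, minus strand: taaaatacactGCACTTTgtttagaaaaa
Txnip, chr3:96561230-96561259, plus strand: tgatgttcttaGCACTTTAgcttgtcaatt
Kat2b, chr17:53670984-53671012, plus strand: tgtaataattaGCACTTTtgaaaaacaaa
Crim1, chr17:78375901-78375929, plus strand: aacagctcttaGCACTTTtatactaatga
Of these, the first 4 belong to genes that fell. The Txnip, Kat2b and Crim1 genes were not called in the main analysis.

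Most called genes held no match. A 7-base match was present in 15.1% and an 8-base match in 4.65% of 11581 tested genes with an annotated 3' UTR. Of the 46 called lower genes with a 3' UTR, 8 held the 7-base match and 3 of these the 8-base match, namely Bhlhe41, Rasgrf2 and Tmem251. Of the 13 higher genes 1 held a 7-base match, Fibin. Among the reported targets 37 of 40 held the 7-base match, and Pparg was not among these in the 3' UTR searched. Ccl2, Cxcl1, Ccl7, Mx1 and Tnfaip3 had none.

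Medians of the classes by seed match lay close to 0. The 539 genes with an 8-base match had a median log2 fold change of -0.025, the 1205 with a 7-base match only -0.013, and the 9837 without -0.0026. Of the 539, none was called higher and 3 lower (0.557%). Among genes without a match 0.386% were called lower and 0.508% in either direction. At an unadjusted p under 0.05, 7.05% of the 539 were lower and 2.97% higher, against 5.66% and 4.76% of genes without a match. Genes with an 8-base match had longer 3' UTRs (median 2717 bases against 1042), and the part of length in these shares was not tested. The 506 genes with a 7-base match in the last 500 bases of the 3' UTR had a median of 0.0022, with 49.0% below 0. For 21 genes with 2 or more 8-base matches the median was -0.050, with none called. No test was made on these groups of genes.

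**Figure D5:**
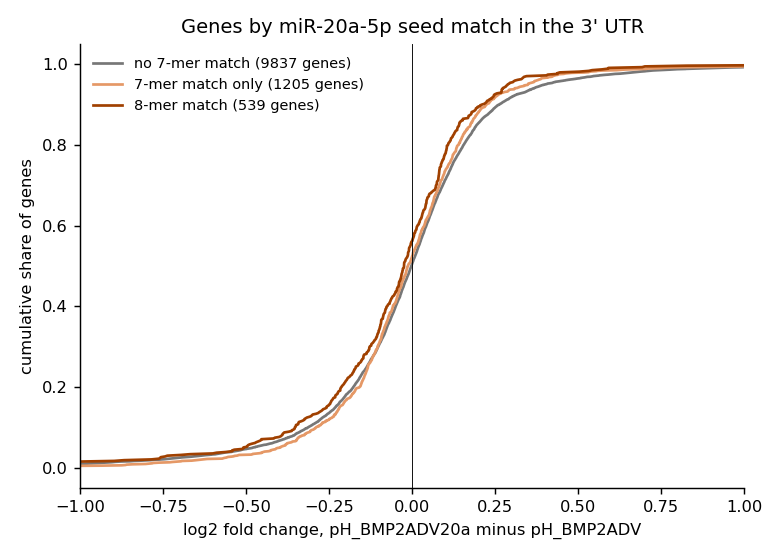
Cumulative share of genes (vertical axis) by log2 fold change (pH_BMP2ADV20a minus pH_BMP2ADV), for genes with no match, a 7-base match only and an 8-base match to the miR-20a-5p seed. The curve of the 539 genes with an 8-base match lies slightly to the left of the other curves, with medians of -0.025, -0.013 and -0.0026.

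Promoters of 3 chemokine and interferon genes that fell are shown, chosen because they hold the motifs searched. They come from RefSeq (GRCm38.p6), run from 250 bases before to 50 after the annotated start, and are written on the strand of the gene. The motifs were GGGA, any 2 bases and TTCC (kappaB, bound by NF-kB) and TTTC, any 2 bases and TTTC (ISRE, bound by interferon-activated factors), each on either strand, and capitals mark them. In Cxcl1 the capitals cover 2 overlapping kappaB matches, 1 on each strand.
Cxcl1, chr5:90890995-90891294, plus strand: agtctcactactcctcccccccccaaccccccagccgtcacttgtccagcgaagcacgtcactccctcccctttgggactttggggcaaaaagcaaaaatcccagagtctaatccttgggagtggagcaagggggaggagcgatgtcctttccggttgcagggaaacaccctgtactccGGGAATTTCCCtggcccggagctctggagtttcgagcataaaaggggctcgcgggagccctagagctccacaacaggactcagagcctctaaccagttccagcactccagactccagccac
Cxcl10, chr5:92348840-92349139, minus strand: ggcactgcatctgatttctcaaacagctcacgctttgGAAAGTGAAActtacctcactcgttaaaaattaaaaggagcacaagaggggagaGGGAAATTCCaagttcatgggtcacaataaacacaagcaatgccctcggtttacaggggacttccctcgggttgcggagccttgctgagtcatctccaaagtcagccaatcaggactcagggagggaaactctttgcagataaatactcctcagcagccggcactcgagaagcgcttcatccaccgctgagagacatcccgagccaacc
Rsad2, chr12:26456403-26456702, minus strand: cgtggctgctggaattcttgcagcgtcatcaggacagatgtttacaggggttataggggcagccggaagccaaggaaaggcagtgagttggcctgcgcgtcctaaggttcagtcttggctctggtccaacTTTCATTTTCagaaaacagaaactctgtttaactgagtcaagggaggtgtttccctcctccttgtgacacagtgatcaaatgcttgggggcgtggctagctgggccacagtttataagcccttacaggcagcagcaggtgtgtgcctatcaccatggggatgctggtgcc
The kappaB match of Cxcl1 begins at position -71 from the start, that of Cxcl10 at -159 with its ISRE at -213, and the ISRE of Rsad2 begins at -120. Irf1 and Tnfaip3, with 2 promoters each in the table, held no match to either of these strings in these windows. Other forms of the kappaB and ISRE sites were not searched.

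A RefSeq promoter was at hand for 34 of the 50 lower genes and 9 of the 13 higher genes. The kappaB motif was in 4 of the 34 (11.8%), among them Csf1, against 1.71% of 9569 tested genes and 1.63% of all 27025 genes with a promoter. The ISRE was in 5 of the 34 (14.7%), among them Gbp2b, Ifi207 and Plk2, against 3.79% of tested genes and 3.99% of all genes. The AP-1 motif TGANTCA was in 5 (14.7%, against 6.04% and 8.97%) and the antioxidant motif TGACNNNGC in 9 (26.5%, against 16.8% and 14%). The E-box CACGTG, which clock factors and MYC bind, was in 11 (32.4%, against 11.8% and 8.09%). Bhlhe41, Bbc3, Gadd45b, Gadd45g and Tnfaip3 were among those with the E-box. Matches of different motifs can share bases, as AP-1 and antioxidant matches do in Cxcl10. None of the 9 higher genes held any of the 5 motifs. These are matches of letters in a short window, with no measure of binding.

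Levels with the other hybrid plasmids differed by gene. These comparisons use the pH_BMP2ADV20a libraries again, so they are not independent of those above, and the values are given side by side. Against pH_BMP2ADV148b, 7 genes were higher and 67 lower in pH_BMP2ADV20a (0.0529% and 0.506% of tested genes, 0.559% together), and against pH_BMP2ADV590 116 were higher and 171 lower (0.877% and 1.29%, 2.17% together). Ccl2 averaged 16.3 ± 4.97 CPM in pH_BMP2ADV148b and 3.70 ± 1.07 CPM in pH_BMP2ADV590 (SD, n = 3). It was lower in pH_BMP2ADV20a than in pH_BMP2ADV148b (-1.44, adjusted p = 0.0011), and the difference from pH_BMP2ADV590 did not pass the test (0.69, SE 0.245, adjusted p = 0.173). Ccl7 averaged 15.9 ± 3.63 and 4.91 ± 1.38 CPM, with the same outcome (-1.49, adjusted p = 0.000634, and 0.21, SE 0.233, adjusted p = 0.753). Cxcl1 averaged 14.2 ± 1.74 and 7.46 ± 1.51 CPM (-1.31, adjusted p = 0.00147, and -0.38, SE 0.21, adjusted p = 0.425). For all 3 the pH_BMP2ADV148b libraries lay above the pH_BMP2ADV20a libraries without overlap.

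Mx1, Rsad2, Cxcl10 and Irf1 were also lower than with pH_BMP2ADV148b. Mx1 averaged 52.0 ± 11.5 CPM in pH_BMP2ADV148b and 16.0 ± 3.56 CPM in pH_BMP2ADV590. The difference of pH_BMP2ADV20a was -1.58 (adjusted p = 4.04e-06) from the former and 0.13 (SE 0.168, adjusted p = 0.8) from the latter. Rsad2 averaged 93.8 ± 25.6 and 21.8 ± 3.27 CPM (-1.52, adjusted p = 4.04e-06, and 0.58, adjusted p = 0.0594). Cxcl10 averaged 86.4 ± 30.2 and 24.0 ± 0.882 CPM (-1.71, adjusted p = 4.7e-06, and 0.14, adjusted p = 0.804). For Irf1, with 58.8 ± 6.65 and 28.2 ± 1.36 CPM, pH_BMP2ADV20a was lower than pH_BMP2ADV148b (-0.63, adjusted p = 0.00538) and higher than pH_BMP2ADV590 (0.43, adjusted p = 0.0472).

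For Gadd45a, Bhlhe41 and Hmox1 no difference from another hybrid passed the test. Gadd45a averaged 13.9 ± 1.55 CPM in pH_BMP2ADV148b and 14.4 ± 1.75 CPM in pH_BMP2ADV590, both means above that of pH_BMP2ADV20a (-0.54, adjusted p = 0.264, and -0.60, adjusted p = 0.0633). Bhlhe41 averaged 10.4 ± 1.36 and 8.97 ± 2.45 CPM (-0.56, adjusted p = 0.422, and -0.36, adjusted p = 0.457). Hmox1 averaged 78.1 ± 13.7 and 52.9 ± 7.73 CPM (-0.48, adjusted p = 0.276, and 0.08, adjusted p = 0.867). A difference that misses the threshold does not show equal levels. Gadd45g was higher in pH_BMP2ADV20a than in pH_BMP2ADV590, which averaged 160.4 ± 21.9 CPM (0.39, adjusted p = 0.0308), and so was Csf1 at 66.5 ± 14.8 CPM (0.49, adjusted p = 0.0318).

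Among the rises, Krt15, Krt16, Mmp11 and Fibin were higher still in pH_BMP2ADV590. The difference of pH_BMP2ADV20a from pH_BMP2ADV590 was -0.82 for Krt15 (adjusted p = 0.00258), -0.998 for Krt16 (adjusted p = 0.00249), -0.67 for Mmp11 (adjusted p = 0.00686) and -0.55 for Fibin (adjusted p = 0.0397). Anxa8 was higher in pH_BMP2ADV20a than in pH_BMP2ADV148b, which averaged 105 ± 9.81 CPM (0.51, adjusted p = 0.0308). Sparc averaged 6823 ± 415 CPM in pH_BMP2ADV148b and 7605 ± 726 CPM in pH_BMP2ADV590, and neither difference passed the test (0.18, adjusted p = 0.566, and 0.02, adjusted p = 0.946).

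Beside these, the other hybrids were compared with pH_BMP2ADV itself. These comparisons share the pH_BMP2ADV libraries with the one described above, so their values are set side by side and no overlap is counted. In pH_BMP2ADV590 578 genes were called higher and 515 lower than in pH_BMP2ADV (4.37% and 3.89% of tested genes, 8.26% together), and in pH_BMP2ADV148b 28 and 5 (0.212% and 0.0378%, 0.249% together). The falls and rises named next were called with pH_BMP2ADV20a and with pH_BMP2ADV590. Ccl2 stood at -2.84 in pH_BMP2ADV590 (adjusted p = 1.18e-07), beside -2.15 in pH_BMP2ADV20a. Ccl7, Cxcl1 and Tnfaip3 stood at -1.76, -1.25 and -2.14 (adjusted p = 1.68e-05, 0.000215 and 7.97e-05). Mx1, Mx2 and Irf1 stood at -1.14, -1.11 and -1.13 (adjusted p = 8.18e-05, 4.76e-06 and 1.3e-06). Hmox1, Bhlhe41, Gadd45a and Gadd45b were at -1.07, -0.98, -0.55 and -0.59 (adjusted p = 5.97e-05, 0.00225, 0.0323 and 0.000136). Of the rises, Krt15 and Krt16 were at 1.495 and 1.82 (adjusted p = 8.62e-07 and 1.1e-06), and Cdsn, Anxa8 and Sparc at 0.74, 0.59 and 0.33 (adjusted p = 0.000131, 0.00151 and 0.00907). These changes were thus measured with both plasmids and not with pH_BMP2ADV20a alone. Cnot4, Ptp4a1, Cited2 and Nr1d2, and the scarce Ccl4, Rasgrf2 and C3, were not called in pH_BMP2ADV590 (adjusted p = 0.329, 0.15, 0.0661, 0.0562, 0.052, 0.18 and 0.0791). They too were all below 0 there, at -0.19, -0.27, -0.40, -0.30, -2.30, -1.38 and -1.91. For none of them did the difference between pH_BMP2ADV20a and pH_BMP2ADV590 pass the test (adjusted p from 0.117 to 0.568).

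With pH_BMP2ADV148b the same chemokine genes were not called, Ccl2 at -0.72 (adjusted p = 0.187) and Ccl7 at -0.06 (adjusted p = 0.96). Gadd45b was lower there (-0.44, adjusted p = 0.0419), and Cdsn and Mmp11 were higher (0.53 and 0.66, adjusted p = 0.0442 and 0.0419). Rsad2 and Cxcl10 went the other way, at 0.82 and 0.80 (adjusted p = 0.0178 and 0.0465).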

How the data were processed

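Polyadenylated RNA of 12 libraries was read from its 3′ end with QuantSeq 3' mRNA FWD, per the labels' protocols. The authors deposited raw gene counts, unnormalised, with 1 file for each library. Per the submitters' processing notes, the tools were FastQC 0.11.5, STAR 2.5.2a, HTSeq 0.6.0 and DESeq2 with the version given as 3.11, on GRCm38. The strand setting, counting mode and annotation release were not given in the sources used here. Lines that name no gene, mainly reads with several alignments, made up 53.4% to 54.4% of the records of the 6 libraries and were left out. Of 47643 genes, 47224 took a symbol from GENCODE M21 on GRCm38.

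Counts were fitted in edgeR 4.0.16 (R 4.3.3) after filterByExpr and TMM scaling, with 1 mean per group over all 12 libraries, and the quasi-likelihood F-test. P-values were adjusted by Benjamini-Hochberg over 13229 genes and called at 0.05. The common biological coefficient of variation was 0.117. CPM are counts scaled by TMM library size, in the usual per-million unit, and intervals are 95% intervals of the fit, except that those of count ratios cover counting error only. Alternatives were RLE scaling, no low-count filter, the 6 libraries alone, Gm42418 and mitochondrial genes removed, a replicate block, DESeq2 1.42.0, limma-voom (limma 3.58.1) and each library left out.

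The comparison, lists, motifs and naming rule were chosen with earlier results of these data known. Named were Bmp2, Mir20a, Mir17hg, Bambi, Crim1, Pparg, Smad6, Smad7, Nog and Id1, the 12 strongest called rises and 12 strongest called falls from 5 CPM upwards, up to 4 called members of each list, the 3 lowest and 3 highest reported targets, and other called genes by their value. Genes named without a call beyond these were chosen after their values were seen. Lists were given by counts and medians, with no set test. The 3' UTR was the longest annotated one per gene. Some called or listed genes are counted but not reported here by name.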

Additional observations from a re-analysis of the deposited data

How the results depend on the processing

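The 63 called genes kept their direction when each of the 12 libraries was left out, and the 61 with an established name kept it under the other alternatives too. Among the genes without a call that were named by the rule above, 4 changed sign. With 1 library left out Mir17hg ran from -0.36 to 0.46 (0.10 with limma-voom), Smad6 from -0.0540 to 0.0167, Bambi from -0.0553 to 0.22 and Nog from -0.0243 to 0.81. Sign changes of all other genes without a call are not given here. The number of calls was 63 in the main analysis, 60 with RLE scaling, 63 with limma-voom (10 higher, 53 lower) and 63 without Gm42418 and mitochondrial genes. It rose to 184 (71 higher, 113 lower) with no low-count filter, to 145 (43 higher, 102 lower) with the 6 libraries alone, and to 105 (35 higher, 70 lower) with DESeq2, against 13 higher and 50 lower. It ranged from 18 to 108 with 1 library left out. Of the 63, 62 were also called by DESeq2 and 59 by limma-voom. Replicate numbers did not pair the samples: same-numbered libraries of the 2 groups correlated at -0.0299, 0.0165 and -0.0847 in their deviations over 13229 genes, and 1 of 3 correlated best with its own number. With the replicate block 36 genes were called (4 higher, 32 lower), all among the 63, and Krt15 and Krt16 were among those not called (adjusted p = 0.0586 and 0.0619). For genes with an 8-base seed match the median of -0.0249 became -0.0167 with the 7-base match, -0.0210 in the last 500 bases of the 3' UTR, -0.0201 with RLE scaling, -0.0188 with no filter, -0.0197 with DESeq2 and -0.0214 with limma-voom, and -0.0348 to -0.0142 with 1 library left out. It was -0.0228 with the 6 libraries alone, -0.0259 with the replicate block and -0.0261 without Gm42418 and mitochondrial genes. Beside these, the median of all tested genes with a 3' UTR was -0.0045 in the main analysis and moved with the setting too. It was 0.00017 with RLE scaling, 0.00165 with no filter, 0.00055 with DESeq2 and -0.0050 with limma-voom. With the 6 libraries alone it was -0.0025, with the replicate block -0.0051, and without Gm42418 and mitochondrial genes -0.0059. The cause of these differences was not tested. Depth limits the scarce genes most: Bmp2, Mir17hg, Ccl4, Mmp9, Rasgrf2 and C3 had under 100 counts in each library.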
